A study of Mus musculus with 7 samples.

Results

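The genes described here encode molecular chaperones: the heat shock proteins of the HSP70, HSP110, HSP90 and small HSP groups, the mitochondrial chaperonin, the J-domain proteins named Dnaj, and the subunits of the cytosolic chaperonin CCT. They were chosen by platform symbol (starting with Hspa, Hspb, Hspd, Hspe, Hsph, Hsp90 or Dnaj, or Cct2 to Cct8 with Cct6a). Of 95 such probes for 70 genes on the array, 57 probes for 49 genes had a value, out of 13304 valued probes for 9009 genes in all, and the other 21 genes had blank probes only. Mice received an aqueous extract of Ephedra herba by mouth once a day, and RNA from brain tissue was hybridised to 7 Illumina arrays. The mice were C57BL/6 females, 5 weeks old. An untreated control had 1 array, and the extract at 50 or 1250 mg/kg for 1, 3 or 10 days had 6, 1 per dose and day. No condition had a second array, and the labels used here do not say how many mice gave each RNA or whether the control mice received a vehicle.

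Chaperones bind unfolded or partly folded proteins and help them fold, assemble, cross membranes or go to degradation. HSP70 proteins cycle between ATP and ADP: J-domain proteins bring them clients and trigger ATP hydrolysis, and HSP110 proteins exchange the nucleotide. HSP60 and HSP10 form a closed folding chamber in mitochondria, CCT is the ring that folds actin and tubulin in the cytosol, and the HSP90 and HSP70 proteins of the endoplasmic reticulum serve secreted and membrane proteins. In neurons, J-domain proteins also uncoat synaptic vesicles and keep their fusion proteins folded. Heat shock factor 1 drives many of these genes from pairs of inverted GAA units in their promoters, and the unfolded protein response drives those of the endoplasmic reticulum.

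Most of the chaperone calls came from day 3, and from single genes rather than from the set as a whole. Expression is given as quantile-normalised log2 intensity, on which 1 is a 2-fold difference. Some deposited values lie below 0, and the sources used here do not say how they were made. Levels of different chaperone probes are therefore not compared, except to mark probes near the lowest values of an array. The marker sums add the levels of several probes, so brighter probes weigh more in them. The day 3 contrast is the mean of the 2 day 3 arrays minus the mean of the 4 day 1 and day 10 arrays, adjusted for dose. It was tested with limma, with Benjamini-Hochberg adjustment over all 13304 probes and a threshold of 0.05. The doses stand in for replicates, so the error starts from the spread between the arrays of a day once dose is fitted. That spread has 2 residual degrees of freedom for each probe. Limma pooled it with a trend over all probes that weighed as 18.0 degrees of freedom. Each SE and p therefore rests mostly on probes of similar intensity, and less on the probe's own spread. The error also holds any effect of dose that differs by day. Whatever else the 2 day 3 arrays shared is part of the difference and not of this error. It cannot be told apart from the day of dosing, and the labels give no day for the control. At this threshold 11 of 57 chaperone probes (19.3%) were higher on day 3, against 11.3% of all probes, and 6 (10.5%) were lower, against 8.82% of all probes. The same shares of all probes stand beside the day 3 counts of each class and list below. The day 3 arrays lay wholly above the other 4 for 14 chaperone probes (24.6%; 17.5% of all probes) and wholly below for 11 (19.3%; 21.4% of all probes). The median day 3 difference was -0.04 over the chaperone probes and -0.04 over all probes. With the deposited values unscaled, or with arrays centred on their medians, 9 chaperone probes were called higher and 9 lower. The share of higher among the calls then fell from 64.7% to 50% for chaperones, and from 56.1% to 41% and 46.1% for all probes. The median of all probes moved from -0.04 to -0.08 unscaled and -0.06 centred, and that of the chaperone probes from -0.04 to -0.12 and -0.10.

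**Figure D1:**
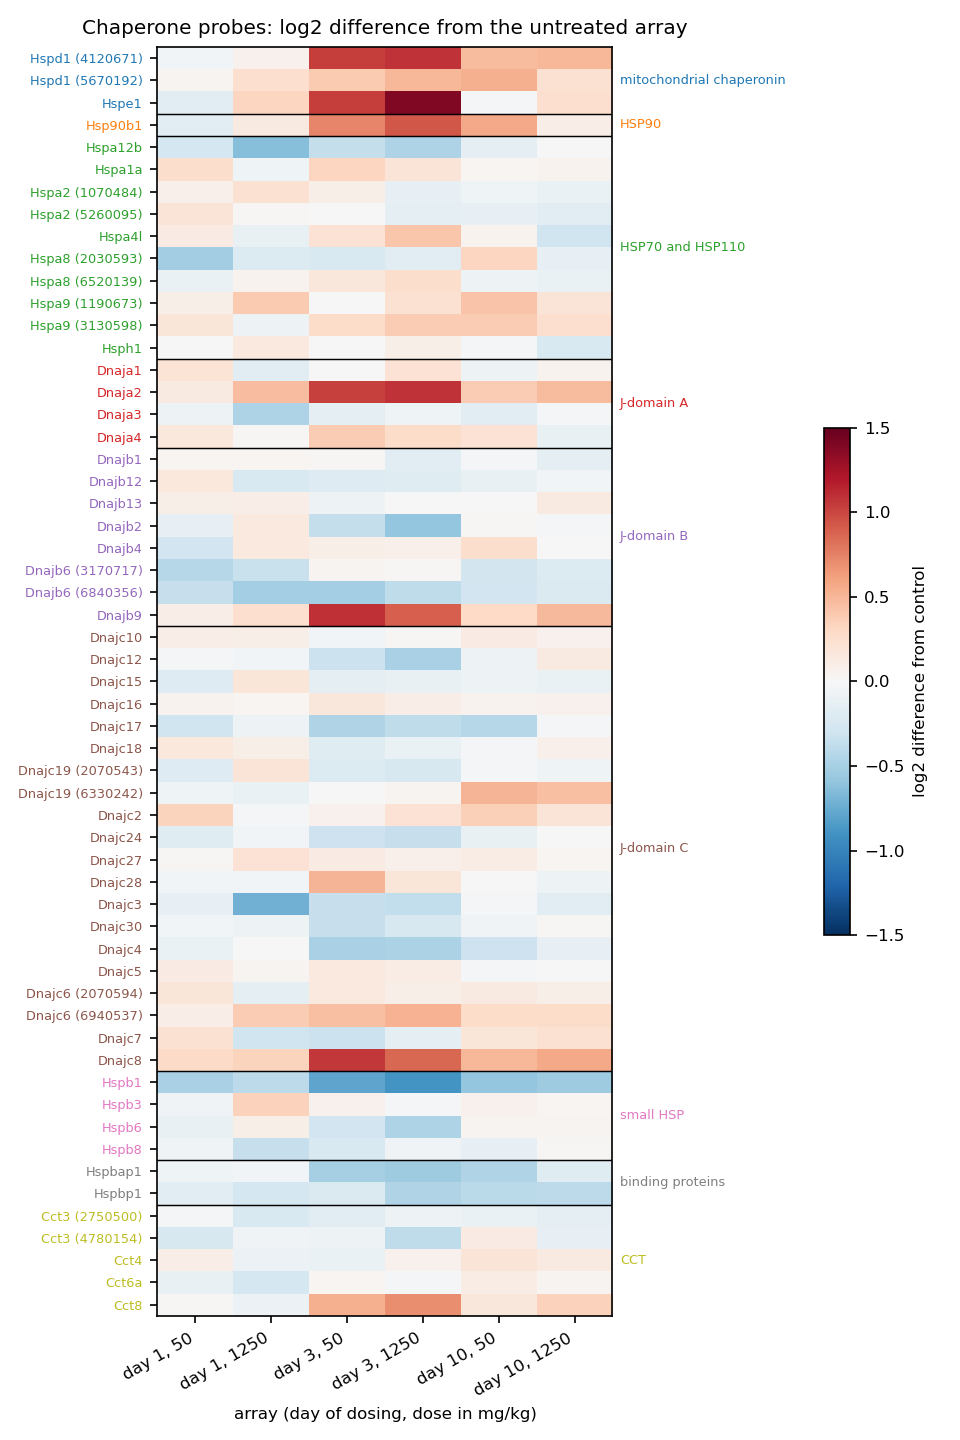
Log2 difference of each of the 57 chaperone probes from the untreated array, on each of the 6 treated arrays (columns: day of dosing and dose in mg/kg), with probes grouped by class and probe numbers given where a gene has 2 probes. The deepest red lies in the day 3 columns, in Hspe1, 1 Hspd1 probe, Dnaja2, Dnajb9, Dnajc8, Hsp90b1 and Cct8, while Hspb1 is blue on every treated array.

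Markers of other tissues and cell types also differed between the days. Neuronal markers were present on every array, with a summed linear intensity (2 to the power of each log2 value) between 533.7 and 593.9 over 8 probes, of which 4 were called higher and 1 lower on day 3 (Snap25 and Nefl had no value). Of 11 liver marker probes, 10 were called lower on day 3, the exception being Ttr, which choroid plexus also expresses. Alb had no value. Ttr made up most of the liver sum, and without it the summed intensity of the other 10 probes was 11.4 in the control, 9.2 and 14.6 after 3 days, 11.2 and 85.8 after 1 day and 25.6 and 60.7 after 10 days (with Ttr, from 164.9 to 320.1 over the 7 arrays). Both red cell probes were called lower on day 3, with sums of 196 and 131, against 211.1 and 343.4 after 1 day and 261.4 and 362.1 after 10. Of the ependymal cilia probes 3 of 5 were lower, with sums of 11.6 and 11 on day 3, 16.1 and 17.7 after 1 day and 13.6 and 13.9 after 10 days. Cerebellar markers were 1 of 4 higher on day 3 and 4 of 4 higher on day 10 than on day 1, with sums of 20.3 in the control, 17.8 and 22.5 after 1 day, 50.7 and 37.4 after 3 days and 47.8 and 121.3 after 10 days. Astrocyte probes were 2 of 9 higher, olfactory bulb 1 of 3 higher, microglia 1 of 6 higher, choroid plexus 1 of 8 lower and heart and skeletal muscle 1 of 4 lower on day 3. A negative difference, not called, was found in 5 of the 9 astrocyte and 4 of the 6 microglia probes. The microglia median was -0.19, with 3 probes wholly below the other days. Microglia sums were 39 and 38.9 on day 3, 40.7 and 46.5 after 1 day, 36.3 and 33.7 after 10 days and 47.8 in the control. None of the 11 oligodendrocyte, 6 endothelial, 5 cortical and hippocampal neuron and 2 pituitary probes was called on day 3. The day 3 arrays were far apart in the pituitary probes, with sums of 15.7 at 50 mg/kg and 1.3 at 1250 mg/kg. Pituitary sums were 18.5 and 27.7 after 1 day, 1.2 and 1.2 after 10 days and 2.9 in the control. The part of these markers in the chaperone differences was not tested. In RNA from brain tissue, a different share of a cell type or tissue in the sample and a different RNA level per cell cannot be told apart.

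The mitochondrial chaperonin held the highest day 3 differences of the set. Hspe1 encodes HSP10, the lid of the folding chamber, and Hspd1 encodes HSP60, which forms its barrel. In mouse these 2 genes lie head to head on chromosome 1, and the stretch between their starts is shown because both genes had a probe called higher on day 3. It is 215 bases long (RefSeq, GRCm38.p6, chr1:55087933-55088147, plus strand, 5′ to 3′ in the direction of Hspe1), and the capitals mark a run of 3 overlapping heat shock pairs that begins 89 bases before the Hspe1 start.
Hspd1-Hspe1: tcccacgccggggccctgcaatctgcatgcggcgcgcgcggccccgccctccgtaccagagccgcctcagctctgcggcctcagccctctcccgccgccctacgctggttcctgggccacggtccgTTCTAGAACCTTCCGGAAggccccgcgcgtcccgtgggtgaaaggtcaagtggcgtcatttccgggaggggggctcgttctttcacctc
A heat shock pair is here GAANNTTC or TTCNNGAA, each of which reads the same on both strands.

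Levels are given below in pairs, with 50 mg/kg first and 1250 mg/kg next. Hspe1 (probe 2650709) read 1.19 in the control, 1.04 and 1.51 after 1 day, 2.22 and 2.58 after 3 days, and 1.17 and 1.45 after 10 days. Both day 3 arrays stood above all 5 others, and the 1250 mg/kg array was the higher at each day. The day 3 difference of Hspe1 was 1.11 ± 0.11 (SE; adjusted p = 3.79e-07), or 1.12 within the 50 mg/kg arrays and 1.10 within the 1250 mg/kg arrays. Hspd1 (probe 4120671) read 3.40 in the control, 3.35 and 3.47 after 1 day, 4.44 and 4.48 after 3 days, and 3.87 and 3.89 after 10 days. Its day 3 arrays were again the highest of the 7, the doses lay close together at each day, and the day 10 arrays sat between day 1 and day 3. The difference for that Hspd1 probe was 0.81 ± 0.10 (SE; adjusted p = 7.94e-06). The second Hspd1 probe (5670192) read 1.43 in the control, 1.47 and 1.68 after 1 day, 1.82 and 1.93 after 3 days, and 1.96 and 1.65 after 10 days. Its day 3 values fell among those of day 10, and the difference of 0.19 ± 0.12 (SE; adjusted p = 0.282) did not pass the test. The calls for Hspe1 and for Hspd1 probe 4120671 held under every alternative they were run under, with differences from 1.07 to 1.15 and from 0.70 to 0.83.

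**Figure D2:**
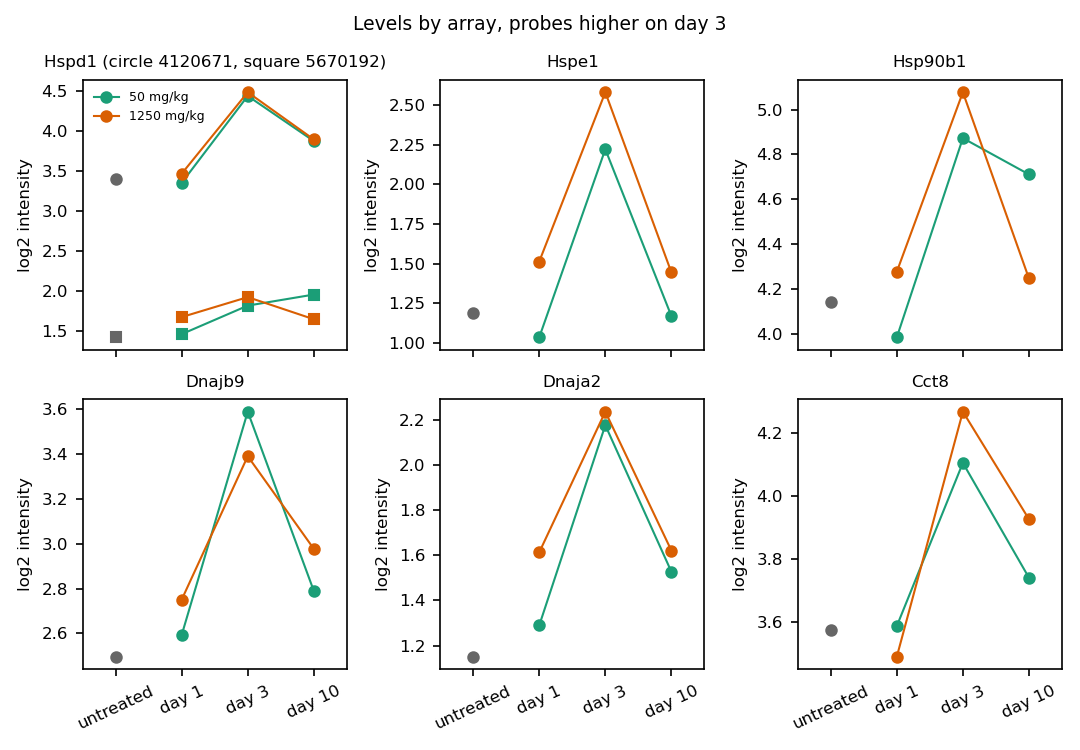
Quantile-normalised log2 intensity of 6 chaperone genes (vertical axis, a separate range for each panel) on the untreated array (grey) and on days 1, 3 and 10 at 50 mg/kg (green) and 1250 mg/kg (orange); each point is 1 array and the lines join arrays of 1 dose. The day 3 points are the highest in each panel, except for the second Hspd1 probe (squares), whose day 3 and day 10 points overlap.

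Among 14 probes for other mitochondrial import and protease genes, 3 were higher and 2 lower on day 3, with a median of -0.15. Tomm70a, an outer membrane receptor that takes precursors from cytosolic HSP70 and HSP90, rose by 1.20 ± 0.11 (SE; adjusted p = 2.10e-07). Clpx, the unfolding ring of the matrix protease, rose by 0.40 and 0.32 on its 2 probes, while its protease partner Clpp differed by -0.40 and 1 of 3 probes for the import motor subunit Timm44 by -0.30, both called lower. The other Timm44 probes differed by -0.16 and -0.15 and did not pass the test. Hspa9, the mitochondrial HSP70 (mortalin), did not pass the test on either probe. Probe 1190673 read 3.95 in the control, 4.05 and 4.35 after 1 day, 3.96 and 4.18 after 3 days, and 4.38 and 4.14 after 10 days, a day 3 difference of -0.16 ± 0.11 (SE; adjusted p = 0.337). Probe 3130598 read 5.81 in the control, 5.99 and 5.74 after 1 day, 6.09 and 6.18 after 3 days, and 6.18 and 6.06 after 10 days, a difference of 0.14 ± 0.10 (SE; adjusted p = 0.327). The day 3 values of both probes overlapped those of the other days.

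In the endoplasmic reticulum group, Hsp90b1 and Dnajb9 were higher on day 3. Hsp90b1 encodes GRP94, the HSP90 of this compartment, and Dnajb9 encodes ERdj4, a J-domain partner of the resident HSP70, BiP. The 250 bases before the Hsp90b1 start are shown because they hold 2 copies of the ER stress element, which only Hsp90b1 and Dnajc3 held among the 41 chaperone genes with a RefSeq promoter window. The element was searched as CCAAT and CCACG with 9 bases between them, on both strands (GRCm38.p6, chr10:86705445-86705694, minus strand, 5′ to 3′, elements in capitals).
Hsp90b1: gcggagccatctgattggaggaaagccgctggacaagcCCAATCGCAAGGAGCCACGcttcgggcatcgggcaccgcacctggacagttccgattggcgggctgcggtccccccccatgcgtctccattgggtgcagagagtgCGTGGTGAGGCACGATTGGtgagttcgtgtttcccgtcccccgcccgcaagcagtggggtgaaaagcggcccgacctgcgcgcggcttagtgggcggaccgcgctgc
Over windows from 250 bases before to 50 after the start, that is 4.88% of chaperone genes and 0.14% of 27025 genes.

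Hsp90b1 read 4.14 in the control, 3.98 and 4.28 after 1 day, 4.87 and 5.08 after 3 days, and 4.71 and 4.25 after 10 days. The day 3 arrays were the highest, but the day 10 array at 50 mg/kg came close to them while the day 10 array at 1250 mg/kg stood near the control. The day 3 difference was 0.67 ± 0.13 (SE; adjusted p = 0.000756). Dnajb9 read 2.50 in the control, 2.59 and 2.75 after 1 day, 3.59 and 3.39 after 3 days, and 2.79 and 2.98 after 10 days, with both day 3 arrays above all others and every treated array above the control. Its difference was 0.71 ± 0.11 (SE; adjusted p = 0.000104), and the calls for Hsp90b1 and Dnajb9 held under each alternative tried. Dnajc3, the luminal co-chaperone P58IPK, and Dnajc10, the disulfide reductase ERdj5, did not pass the test, with day 3 differences of -0.10 ± 0.12 (SE; adjusted p = 0.6) and -0.10 ± 0.10 (SE; adjusted p = 0.51). Dnajc3 was lowest on the day 1 array at 1250 mg/kg, 1.86 against 2.58 on the control. Hspa5, which encodes BiP, had blank probes only and was not analysed here. Hsp90b1 was the only HSP90 gene with a value: Hsp90aa1, a cytosolic form, had blank probes, and the other cytosolic gene, Hsp90ab1, was not analysed here.

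Of 26 probes for other genes of the unfolded protein response, 6 were higher on day 3 and 1 was lower, with a median of 0.08. Eif2ak3, the PERK kinase that senses unfolded protein, rose by 0.84 ± 0.11 (SE; adjusted p = 1.20e-05), and Sel1l, a subunit of the degradation ligase, rose on 1 of 3 probes by 0.71 ± 0.13 (adjusted p = 0.000637). The other Sel1l probes differed by -0.29 and 0.26, neither past the threshold. Creld2 (1 of 2 probes, the other at 0.26), Atf4, Calr and Hyou1 rose by 0.49, 0.46, 0.40 and 0.30. Atf4 encodes a transcription factor made when PERK is active, Calr the lectin chaperone calreticulin and Hyou1 an HSP110 relative in the lumen. Ddit3, the CHOP transcription factor that Atf4 can induce, fell on 1 of 2 probes, with a difference of -0.50 ± 0.11 (adjusted p = 0.00251). Its other probe differed by 0.22 and did not pass the test.

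The HSP70 and HSP110 class, which takes in both Hspa9 probes described above, gave 2 calls among 10 probes, both higher on day 3, with a class median of 0.01. Hspa8 encodes HSC70, the constitutive HSP70, abundant in neurons. Its probe 6520139 read 8.03 in the control, 7.94 and 8.09 after 1 day, 8.21 and 8.30 after 3 days, and 7.95 and 7.94 after 10 days. The day 3 arrays were the highest by a narrow margin, and the difference was 0.28 ± 0.09 (SE; adjusted p = 0.0262). That call ended under unscaled values, under median centring and without the intensity trend, and on leaving out each of 4 arrays: day 3 at 50 mg/kg (0.29, adjusted p = 0.197), day 3 at 1250 mg/kg (0.27, adjusted p = 0.285), day 10 at 50 mg/kg (0.31, adjusted p = 0.0577) or day 10 at 1250 mg/kg (0.24, adjusted p = 0.165). The other Hspa8 probe, 2030593, had the widest spread of the class and read 6.08 in the control, 5.55 and 5.87 after 1 day, 5.85 and 5.90 after 3 days, and 6.39 and 5.95 after 10 days. It was lowest on day 1 and highest on day 10, both at 50 mg/kg, and its day 3 difference of -0.06 ± 0.12 (SE; adjusted p = 0.75) did not pass the test. Hspa8 has many processed pseudogenes, so its probes may share signal with copies.

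Hspa4l, an HSP110 relative, read -0.22 in the control, -0.09 and -0.33 after 1 day, -0.01 and 0.20 after 3 days, and -0.17 and -0.52 after 10 days, close to the lowest values on each array. Its day 3 difference of 0.38 ± 0.12 (SE; adjusted p = 0.0281) came mostly from 1250 mg/kg (0.63, against 0.13 at 50 mg/kg). The Hspa4l call ended without the array of day 1 at 1250 mg/kg (0.33, adjusted p = 0.085), day 3 at 1250 mg/kg (0.13, adjusted p = 0.73) or day 10 at 1250 mg/kg (0.29, adjusted p = 0.101). Hspa1a, the stress-inducible HSP70, read 0.76 in the control, 1.02 and 0.69 after 1 day, 1.08 and 0.94 after 3 days, and 0.79 and 0.81 after 10 days. Its day 1 array at 50 mg/kg lay between the day 3 arrays, and the difference of 0.19 ± 0.11 (SE; adjusted p = 0.248) did not pass. Hspa1a and Hspa1b are nearly identical, and which of them this probe reads was not settled here. Hsph1, the heat-inducible HSP110, read 5.76 in the control, 5.77 and 5.90 after 1 day, 5.76 and 5.84 after 3 days, and 5.75 and 5.53 after 10 days, a difference of 0.07 ± 0.10 (SE; adjusted p = 0.694) with overlapping days. Hspa2 and Hspa12b gave no call, with day 3 differences from -0.15 for Hspa12b to -0.05 and -0.06 for the 2 Hspa2 probes.

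**Figure D3:**
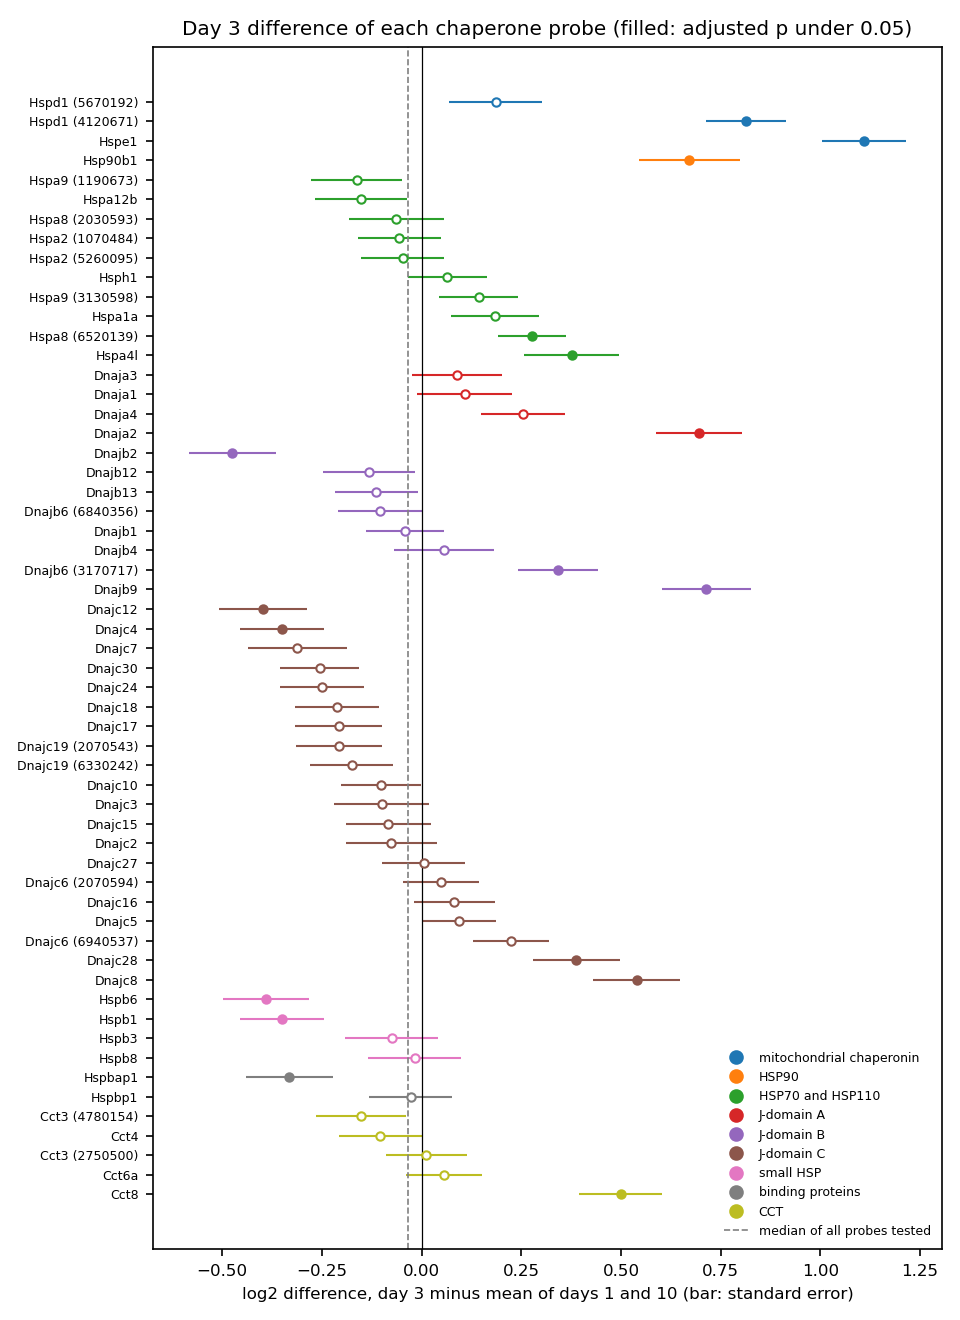
Day 3 difference (horizontal axis, log2, day 3 minus the mean of days 1 and 10, adjusted for dose) of each of the 57 chaperone probes, ordered within class, with bars of 1 standard error; filled points passed the threshold and the dashed line is the median of all probes. The classes hold filled points on either side of 0: the mitochondrial chaperonin, Hsp90b1 and HSP70 calls lie to the right, and the small HSP calls to the left.

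All 4 probes of J-domain group A had a positive day 3 difference, and 1 passed the test. Dnaja2, a partner of HSC70 in refolding, read 1.15 in the control, 1.29 and 1.61 after 1 day, 2.18 and 2.24 after 3 days, and 1.53 and 1.62 after 10 days. The day 3 arrays stood above all others, and the control was the lowest of the 7. The difference was 0.70 ± 0.11 (SE; adjusted p = 0.000108), 0.77 at 50 mg/kg and 0.62 at 1250 mg/kg, and the call held under each alternative tried. Dnaja1, its close relative, read 0.18 in the control, 0.38 and 0.01 after 1 day, 0.18 and 0.39 after 3 days, and 0.10 and 0.23 after 10 days, with a difference of 0.11 ± 0.12 (SE; adjusted p = 0.57) and no separation of day 3. Dnaja3, the mitochondrial member, and Dnaja4 differed by 0.09 and 0.26, neither past the threshold.

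Group B gave 2 probes higher and 1 lower of 8. Beside Dnajb9, described above, Dnajb6, a suppressor of polyglutamine aggregation, was called on probe 3170717, which read 4.22 in the control, 3.79 and 3.90 after 1 day, 4.27 and 4.25 after 3 days, and 3.95 and 4.02 after 10 days. Here the day 3 values lay close to the control, and those of days 1 and 10 lay below both. The difference of 0.34 ± 0.10 (SE; adjusted p = 0.0197) lost its call under unscaled and median-centred values. It was also lost without the array of day 3 at 50 mg/kg (0.29, adjusted p = 0.293), day 3 at 1250 mg/kg (0.39, adjusted p = 0.144) or day 10 at 50 mg/kg (0.34, adjusted p = 0.0527). Its other probe, 6840356, differed by -0.10 ± 0.11 (SE; adjusted p = 0.536). Dnajb2, a neuron-enriched J-domain protein that passes clients to the proteasome, was lower on day 3 and read 4.77 in the control, 4.64 and 4.92 after 1 day, 4.41 and 4.18 after 3 days, and 4.78 and 4.74 after 10 days. The 2 day 3 arrays were below all others, with a difference of -0.47 ± 0.11 (SE; adjusted p = 0.00393), larger at 1250 mg/kg (-0.65) than at 50 mg/kg (-0.30). The Dnajb2 call ended without the array of day 3 at 1250 mg/kg (-0.30, adjusted p = 0.297). Dnajb1, the main heat-inducible J-domain protein, read 5.14 in the control, 5.16 and 5.16 after 1 day, 5.16 and 4.98 after 3 days, and 5.11 and 5.01 after 10 days. That is a range of 0.18 over the 7 arrays and a day 3 difference of -0.04 ± 0.10 (SE; adjusted p = 0.809). Dnajb4, Dnajb12 and Dnajb13 lay between -0.13 and 0.06.

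Group C, the most varied of the 3 groups, gave 2 probes higher and 2 lower of 20, with a median of -0.10. Over all probes 11.3% were higher and 8.82% lower. Dnajc8, a J-domain protein found with the splicing machinery, read -0.23 in the control, 0.06 and 0.10 after 1 day, 0.83 and 0.63 after 3 days, and 0.27 and 0.34 after 10 days. Every treated array exceeded the control and the day 3 arrays were the highest, with a difference of 0.54 ± 0.11 (SE; adjusted p = 0.00127). Without the array of day 3 at 50 mg/kg that call ended (0.41, adjusted p = 0.0741). Dnajc28 read 0.05 in the control, 0.00 and 0.00 after 1 day, 0.56 and 0.23 after 3 days, and 0.04 and -0.03 after 10 days, near the lower end of each array. Its difference of 0.39 ± 0.11 (SE; adjusted p = 0.0152) rested on 50 mg/kg (0.53, against 0.24 at 1250 mg/kg), and the call ended without the array of day 3 at 50 mg/kg (0.24, adjusted p = 0.363) or day 1 at 50 mg/kg (0.34, adjusted p = 0.0528).

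Dnajc12, known from human as a partner of the aromatic amino acid hydroxylases that lead to serotonin and dopamine, was lower on day 3. It read 2.42 in the control, 2.40 and 2.38 after 1 day, 2.10 and 1.94 after 3 days, and 2.34 and 2.56 after 10 days. The 2 day 3 arrays were the lowest of the 7, with a difference of -0.40 ± 0.11 (SE; adjusted p = 0.0141), and the call ended without the array of day 3 at 1250 mg/kg (-0.27, adjusted p = 0.392) or day 10 at 1250 mg/kg (-0.32, adjusted p = 0.0638). Dnajc4 read 2.02 in the control, 1.92 and 2.02 after 1 day, 1.53 and 1.54 after 3 days, and 1.71 and 1.90 after 10 days, also lowest on day 3, with a difference of -0.35 ± 0.11 (SE; adjusted p = 0.0234). Its call ended without the array of day 3 at 50 mg/kg (-0.41, adjusted p = 0.0951), day 3 at 1250 mg/kg (-0.29, adjusted p = 0.339) or day 10 at 1250 mg/kg (-0.32, adjusted p = 0.0639).

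The J-domain proteins of the synapse gave no call on day 3 in the main fit. Dnajc5, the cysteine string protein of synaptic vesicles, read 6.09 in the control, 6.22 and 6.14 after 1 day, 6.24 and 6.21 after 3 days, and 6.07 and 6.09 after 10 days, a difference of 0.09 ± 0.09 (SE; adjusted p = 0.512). Dnajc6, the neuronal auxilin that uncoats clathrin-coated vesicles, differed by 0.22 ± 0.10 (SE; adjusted p = 0.105) on probe 6940537 and by 0.05 ± 0.10 (SE; adjusted p = 0.757) on probe 2070594. On probe 6940537 both day 3 arrays lay above those of days 1 and 10. A Dnajc6 probe was called without the array of day 1 at 1250 mg/kg. The remaining group C genes lay between -0.31 for Dnajc7, an HSP70 and HSP90 adaptor, and 0.08 for Dnajc16. Among them the mitochondrial J-domain proteins Dnajc15, Dnajc19 and Dnajc30 differed by -0.08, -0.21 and -0.18 (Dnajc19, 2 probes) and -0.26. Dnajc7 and Dnajc30 were called lower under the unscaled and median-centred values, as was 1 Dnajc19 probe.

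All 4 small HSP probes had a negative day 3 difference and 2 passed the test. Hspb1 encodes HSP27, which holds unfolded protein and is induced by heat, and Hspb6 encodes HSP20, abundant in muscle and vessel walls. The 250 bases before the Hspb1 start are shown because they hold 2 heat shock pairs in a gene that was lower while Hspe1 and Hspd1, which also hold pairs, were higher (GRCm38.p6, chr5:135887669-135887918, plus strand, 5′ to 3′, pairs in capitals, the first starting 117 bases before the gene start).
Hspb1: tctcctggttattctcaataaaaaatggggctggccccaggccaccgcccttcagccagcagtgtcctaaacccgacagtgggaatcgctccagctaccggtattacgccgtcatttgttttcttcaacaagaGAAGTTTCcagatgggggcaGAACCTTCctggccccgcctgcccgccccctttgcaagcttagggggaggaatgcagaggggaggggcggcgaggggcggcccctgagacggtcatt
In RefSeq promoter windows, 15 of 41 chaperone genes (36.6%) held a heat shock pair, against 17.0% of all 27025 genes. By day 3 result, a pair was found in 3 of 10 genes called higher, 2 of 5 called lower (Hspb1 and Hspb6) and 10 of 26 not called. Of the called genes, Hspa8 (higher) and Dnajc12 (lower) had no window here and are not in these counts. Overlapping pairs that make 3 units in a row were found in Hspd1, Hspe1, Dnajb6 and Hsph1, 9.76% of chaperone genes and 0.66% of all genes. The Hspd1 and Hspe1 windows cover the same run. A match in these letters is not evidence of binding.

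Hspb1 read 2.07 in the control, 1.58 and 1.67 after 1 day, 1.27 and 1.16 after 3 days, and 1.48 and 1.54 after 10 days. All 6 treated arrays lay below the control. That single array had a heart and skeletal muscle marker sum of 19, against 7.7 to 16 on the treated arrays. The day 3 arrays of Hspb1 lay below the other 4 treated arrays. The difference was -0.35 ± 0.11 (SE; adjusted p = 0.0244), and the call ended without the array of day 3 at 50 mg/kg (-0.44, adjusted p = 0.0664), day 3 at 1250 mg/kg (-0.26, adjusted p = 0.396) or day 1 at 1250 mg/kg (-0.32, adjusted p = 0.0571). Hspb6 read 3.32 in the control, 3.21 and 3.41 after 1 day, 3.04 and 2.86 after 3 days, and 3.36 and 3.36 after 10 days, lowest on the day 3 arrays, with a difference of -0.39 ± 0.11 (SE; adjusted p = 0.0148). Without the array of day 3 at 1250 mg/kg the Hspb6 call ended (-0.25, adjusted p = 0.443). Hspb8, the partner of the co-chaperone Bag3, read 1.64 in the control, 1.59 and 1.29 after 1 day, 1.40 and 1.58 after 3 days, and 1.51 and 1.65 after 10 days, a difference of -0.02 ± 0.12 (SE; adjusted p = 0.939) with overlapping days. Hspb3, a muscle member, differed by -0.08. Smooth muscle and pericyte markers gave 1 of 6 probes lower on day 3 (Acta2, -0.58, its other probes -0.26 and -0.06) and 1 higher (Rgs5, 0.51). Their summed intensity was 11.7 and 11.2 after 3 days, 11.3 and 11.6 after 1 day, 13.3 and 11 after 10 days and 13 in the control, and their part in the Hspb1 and Hspb6 differences was not tested.

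Of the proteins that bind heat shock proteins, Hspbap1, a partner of small HSPs, was lower on day 3 and read 1.11 in the control, 1.04 and 1.07 after 1 day, 0.61 and 0.58 after 3 days, and 0.66 and 0.93 after 10 days. Its day 10 array at 50 mg/kg came near the day 3 arrays, and the difference was -0.33 ± 0.11 (SE; adjusted p = 0.0359). That call ended without the array of day 1 at 50 mg/kg (-0.31, adjusted p = 0.077), day 3 at 50 mg/kg (-0.42, adjusted p = 0.0709), day 3 at 1250 mg/kg (-0.24, adjusted p = 0.43) or day 10 at 1250 mg/kg (-0.26, adjusted p = 0.144). Hspbp1, which releases nucleotide from HSP70, differed by -0.03 ± 0.10 (SE; adjusted p = 0.888).

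**Figure D4:**
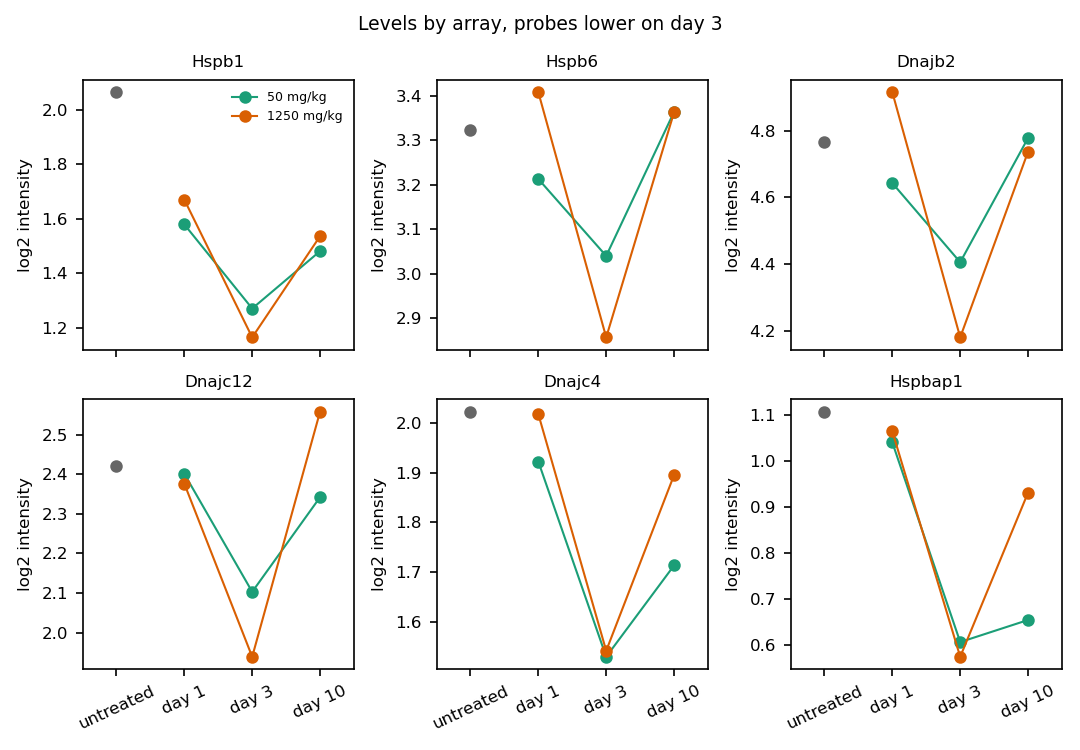
Quantile-normalised log2 intensity (vertical axis, a separate range for each panel) of the 6 chaperone genes called lower on day 3, on the untreated array (grey) and on days 1, 3 and 10 at 50 mg/kg (green) and 1250 mg/kg (orange), 1 array a point. The day 3 points are the lowest in every panel, and in the Hspb1 panel all treated points lie below the untreated one.

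Among 5 CCT probes, 1 was higher on day 3 and none was lower, and the class median was 0.01. Cct8 encodes the theta subunit and read 3.58 in the control, 3.59 and 3.49 after 1 day, 4.10 and 4.27 after 3 days, and 3.74 and 3.93 after 10 days. Both day 3 arrays exceeded all others, with the day 10 arrays next. The difference was 0.50 ± 0.11 (SE; adjusted p = 0.00192), and the call ended without the array of day 3 at 1250 mg/kg (0.44, adjusted p = 0.0916). The probes of Cct3, Cct4 and Cct6a did not pass the threshold. Cct3 (gamma) read 5.02 in the control, 5.0 and 4.79 after 1 day, 4.87 and 4.95 after 3 days, and 4.93 and 4.88 after 10 days on probe 2750500, and 3.54 in the control, 3.30 and 3.48 after 1 day, 3.46 and 3.16 after 3 days, and 3.66 and 3.41 after 10 days on probe 4780154. Cct4 (delta) read 4.63 in the control, 4.73 and 4.54 after 1 day, 4.53 and 4.69 after 3 days, and 4.82 and 4.76 after 10 days. Cct6a (zeta) read 5.57 in the control, 5.46 and 5.31 after 1 day, 5.61 and 5.55 after 3 days, and 5.69 and 5.62 after 10 days. Day 3 overlapped the other days in all 4 of these probes, with differences of 0.01, -0.15, -0.10 and 0.06. Cct2, Cct5 and Cct7 had blank probes. Of 8 probes for CCT partners, including the alpha subunit gene Tcp1, 3 were higher on day 3 and none lower. Tcp1 rose by 0.38 and 0.31 on its 2 probes (adjusted p = 0.0153 and 0.0324). Vbp1, a prefoldin subunit that delivers actin and tubulin chains to CCT, rose by 1.01 ± 0.11 (SE; adjusted p = 1.49e-06).

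The co-chaperones and heat shock factors gave 5 probes higher and 1 lower of 26 on day 3, with a median of 0.07. Cdc37l1, a relative of the kinase-specific HSP90 partner Cdc37, rose on 1 of 3 probes by 0.72 ± 0.11 (SE; adjusted p = 5.03e-05), and Ptges3, which encodes the HSP90 partner p23, rose by 0.70 ± 0.12 (adjusted p = 0.000245). Sgtb, a neuronal HSP70 adaptor, rose by 0.54 and 0.35 on its 2 probes, and Fkbp5, an HSP90 partner induced by glucocorticoids, by 0.36. The other Cdc37l1 probes differed by 0.25 and 0.10, neither past the threshold. Unc45a, which brings HSP90 to myosin, fell on 1 of 2 probes, with a difference of -0.43, the other being -0.09. The cold-inducible RNA-binding protein genes Cirbp and Rbm3 differed by -0.35 and -0.35, and neither passed the test (adjusted p = 0.0727 and 0.161). Hsf1 and Hsf2 had no value.

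The 8 chaperone genes with 2 probes show how far a call rests on the probe. In Hspd1, Hspa8 and Dnajb6, 1 probe was called higher on day 3 and the other was not, and in Hspa8 and Dnajb6 the estimates had opposite signs. Neither probe was called in Hspa2, Hspa9, Cct3, Dnajc6 and Dnajc19, of which Hspa9 and Cct3 also had estimates of opposite sign. Which transcripts each probe reads was not analysed here.

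**Figure D5:**
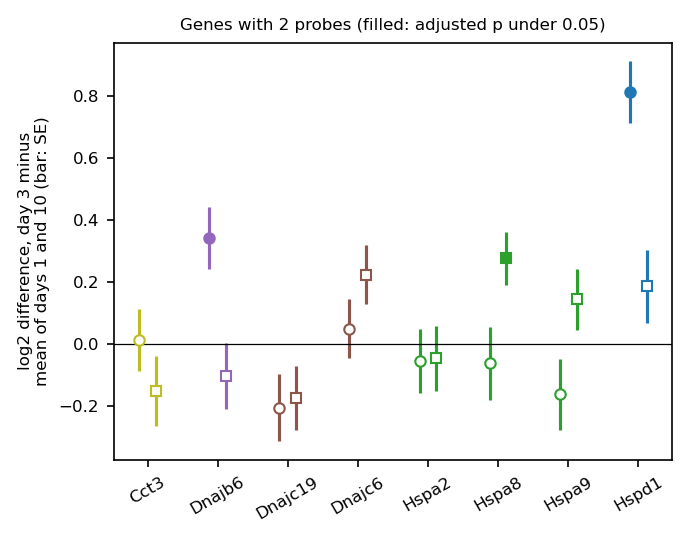
Day 3 difference (vertical axis, log2, day 3 minus the mean of days 1 and 10) of both probes of each of the 8 chaperone genes with 2 probes, with bars of 1 standard error; filled symbols passed the threshold. Hspd1, Hspa8 and Dnajb6 each pair a filled symbol with an open one, and the other 5 genes have open symbols only.

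Between the first and last day of dosing, 2 chaperone probes were called, both higher on day 10. That is 3.51% of the probes, against 1.8% of all probes called higher, and none was lower, against 0.699% of all probes. Dnajc19, a subunit of the mitochondrial import motor, was higher on probe 6330242, which read 0.46 in the control, 0.40 and 0.36 after 1 day, 0.47 and 0.50 after 3 days, and 0.97 and 0.91 after 10 days. The 2 day 10 arrays stood above all others, with a difference of 0.56 ± 0.12 (SE; adjusted p = 0.0151), while the other Dnajc19 probe, 2070543, differed by -0.05 ± 0.13 (SE; adjusted p = 0.887). Hspd1 probe 4120671 was higher by 0.48 ± 0.12 (SE; adjusted p = 0.0336), and its other probe by 0.23 ± 0.14 (SE; adjusted p = 0.386). Both calls ended on leaving out any 1 of the 4 arrays of days 1 and 10, with differences from 0.53 to 0.59 for Dnajc19 (adjusted p up to 0.12) and from 0.43 to 0.52 for Hspd1 (adjusted p up to 0.193). The Hspd1 call was also lost with the unscaled (0.34) and the median-centred values (0.38). Hspa8 probe 2030593 differed by 0.46 ± 0.14 (SE; adjusted p = 0.0801) and did not pass, but was called without the array of day 1 at 1250 mg/kg (0.72), day 10 at 1250 mg/kg (0.78), day 3 at 50 mg/kg, day 3 at 1250 mg/kg or both arrays of day 3 (0.46 in each of the last 3). In the same contrast all 4 cerebellar probes were higher and both pituitary probes lower (summed intensity 1.2 and 1.2 on day 10, 18.5 and 27.7 on day 1). Of the cortical and hippocampal neuron probes 2 of 5 (both Camk2a) and of the olfactory bulb probes 1 of 3 (Cdhr1) were lower, and 1 of 9 astrocyte probes (Aqp4) and 1 of 4 heart and skeletal muscle probes (Myl2) were higher. The part of these markers was not tested. None of the pathway lists held a call in this contrast.

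No chaperone probe was called between the doses. With limma, 0 were higher, against 0.143% of all probes, and 0 lower, against 0% of all probes, and 3 chaperone probes had an unadjusted p under 0.05. Hspe1 was among them, higher at 1250 mg/kg on each day, with a difference of 0.37 ± 0.10 (SE; adjusted p = 0.47). The others were Dnajc17, at 0.23 ± 0.10 (SE; adjusted p = 0.899), and Dnajc3, at -0.26 ± 0.11 (SE; adjusted p = 0.899). In the same contrast 10 of 11 liver marker probes were called higher at 1250 mg/kg (all but Ttr), with a median of 1.34 over the 11, and no probe of the other marker and pathway lists was called. The liver sums without Ttr, given above for each array, were higher at 1250 mg/kg on each day, and their part in the dose differences was not tested. Nor was any chaperone probe called between the 6 treated arrays and the control (0% of all probes in either direction), where the spread of the treated arrays stood in for that of the single control. The 4 with an unadjusted p under 0.05 were Hspb1 at -0.62 ± 0.20 (SE), Dnajb6 probe 6840356 at -0.37 ± 0.16 (SE), Dnajc8 at 0.60 ± 0.25 (SE) and Dnajc6 probe 6940537 at 0.34 ± 0.15 (SE), all with an adjusted p of 1.00.

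Each treated array was also set against the control array, which all these comparisons share, with no test. All 6 treated arrays lay above the control for 8 of 57 chaperone probes, and for 1481 of 13304 probes in all. They lay below it for 10 chaperone probes, and for 1889 probes in all. Dnaja2, Dnajb9 and Dnajc8 were among the 8, and Hspb1 was among the 10. Of the marker probes, 3 of 4 for heart and skeletal muscle and 4 of 6 for endothelium also lay below the control on all 6. In the other direction, 2 of 8 neuronal and 2 of 11 liver probes lay above it. Heart and skeletal muscle sums were 19 in the control, 10.4 and 8.8 after 1 day, 7.9 and 7.8 after 3 days and 16 and 7.7 after 10 days. The part of these markers was not tested. On day 3 at 50 mg/kg, 6 chaperone probes were at least 1.5-fold higher (5.37% of all probes) and 1 at least 1.5-fold lower (2.08%). The 6 were Hspe1, Hspd1 probe 4120671, Dnajb9, Dnaja2, Hsp90b1 and Dnajc8, and the lower probe was Hspb1. On day 3 at 1250 mg/kg, 7 were higher (6.16% of all probes), Cct8 being the added one, and 2 were lower (2.52%), Hspb1 and Dnajb2. On day 1 no chaperone probe passed this fold at 50 mg/kg (0.0977% of all probes higher and 0.173% lower). At 1250 mg/kg on day 1 none was higher (0.504% of all probes) and 2 were lower (0.504%). These were Dnajc3, at -0.72, and Hspa12b, an endothelial HSP70 relative, at -0.64. On day 10 none passed the fold in either direction, at 50 mg/kg (0.902% of all probes higher, 0.526% lower) or at 1250 mg/kg (1.4% higher, 0.616% lower). The highest day 10 values relative to the control were 0.57 at each dose.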

How the data were processed

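Brain RNA from 7 groups of mice was measured on Illumina bead arrays, 1 array a group. The authors deposited log intensities, used here as log2, with 13304 of 25697 probes valued on every array and 12393 blank on every array. The labels name neither the background correction, the normalisation nor the log base. Base 2 was read by eye against a deposited table of linear intensities, whose 7 columns match no sample by name and were not used otherwise, so sizes of differences rest on it. Values were quantile normalised again and fitted with limma 3.58.1 in R 4.3.3 (lmFit, eBayes with an intensity trend, Benjamini-Hochberg over all valued probes, threshold 0.05). The 6 treated arrays were fitted with day and dose (2 residual and 18.0 prior degrees of freedom), and treatment against control on all 7. The scripts were tested on simulated data. Probes were named from the platform annotation, and the symbols of all 57 chaperone probes stand in RefSeq GRCm38.p6. The number of arrays limits the precision. The chaperone set and the gene lists were chosen with earlier results of these data known. Values on all arrays are given for called probes, for a list of classical chaperones and for the probe with the widest range in each class. Alternatives were other scalings, filters, priors, 1 probe per gene, model terms and leaving out each array.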

Additional observations from a re-analysis of the deposited data

How the results depend on the processing

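On day 3, Hspe1, Hspd1 probe 4120671, Hsp90b1, Dnajb9 and Dnaja2 passed the threshold under every alternative in which they were tested, and no called difference changed sign under any alternative. The 11 probes higher and 6 lower on day 3 became 6 and 3 with only the brighter probes (37 chaperone probes among 6652 tested), 9 and 9 with the unscaled or the median-centred values, and 7 to 11 and 1 to 7 on leaving out 1 array. The lowest counts came on leaving out either day 3 array or day 10 at 1250 mg/kg. Without day 3 at 1250 mg/kg, 1 array stands for day 3. None of the 6 probes lower in the main fit kept its call there, with differences from -0.30 to -0.24. The probe called lower in that fit was 1 of Dnajc7, which the main fit did not call. The 2 probes higher on day 10 than on day 1 became 1 with the unscaled values, the median-centred values, the brighter probes alone and 1 probe per gene, and 1 to 3 on leaving out 1 array, and 3 without both arrays of day 3. Without an array of day 1 or day 10 neither of the 2 probes remained among those called. The cause of these changes was not tested, except that the smaller set tests fewer probes and leaving out arrays tests fewer samples. No replicate block could be fitted, since each group has 1 array and the labels carry no replicate numbers. The dose test has day as a block instead, and once each dose mean was taken off, both arrays of the same day correlated at 0.58 (day 1), 0.718 (day 3) and 0.443 (day 10) over probes. Without the day term the dose test called 0 chaperone probes, as with it, and 0 of all probes in place of 19. Dim probes such as Dnajc8, Dnajc28 and Hspa4l lie near the lowest values of each array. Among the single probes called in a contrast or on the list of classical chaperones, 1069 values under an alternative kept their side of the threshold and moved by less than their standard error or stayed called, 133 moved further, 43 lost a call and 6 gained one. Probes outside that group, such as those of Dnajc7, Dnajc30, Dnajc19 and Dnajc6 on day 3, also gained calls and are not in these counts. Of class medians 36 moved and 459 did not, and of single-array counts 3 moved and 21 did not.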
